A study of Rattus norvegicus with 12 samples.

Results

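The 10 genes of reactive gliosis, the response of retinal glia to injury, described here are Gfap, Vim, Nes, Lcn2, A2m, Ptx3, Cd44, S1pr3, Emp1 and Steap4. They were taken by gene name from the deposited expression table, where each of the 10 names had 1 row among 30560 genes. The table holds total RNA of rat retina, 1 library per rat. In 6 rats the vitreous had been injected with 2 µL of 20 mM NMDA, a glutamate receptor agonist that injures retinal neurons by overstimulation, and in 6 rats with 2 µL of PBS, the vehicle. The labels, which call the series a glaucoma model, give no strain, age or sex, no time between injection and collection, and do not say whether both retinas of a rat were combined. Libraries are called NMDA 1 to NMDA 6 and PBS 1 to PBS 6 after the numbers in the labels.

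Müller cells span the whole retina and, with the astrocytes of the nerve fibre layer, keep glutamate, potassium and water in balance. After injury these glia enlarge their intermediate filament network, which is built from the GFAP, vimentin and nestin proteins, and make secreted defence proteins such as lipocalin-2, alpha-2-macroglobulin and pentraxin-3. Their membranes change as well, with more of the hyaluronan receptor CD44 and of receptors for lipid mediators. Gfap is the most widely used marker of this state in the retina, where Müller cells express little of it at rest.

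All 10 genes passed the filter on low counts, and 6 of them were higher after NMDA and none lower (edgeR quasi-likelihood test, two-sided, Benjamini-Hochberg adjusted over 16260 genes, threshold 0.05). Among all genes tested, 20.4% were higher and 17.5% lower. The 6 were the filament genes Gfap, Vim and Nes, the lipocalin gene Lcn2, and the receptor genes Cd44 and S1pr3. A2m, Ptx3, Emp1 and Steap4 did not pass. The median log2 fold change, NMDA minus PBS, was 1.33 over the 10 genes and 0.01 over all genes tested. In 5 of the 10 genes every NMDA library lay above every PBS library, which was so for 9.43% of all genes tested. The 10 genes, like the related lists below, were chosen with earlier results of these data known. The comparisons with all genes are therefore descriptions and no test of the set. In bulk retina, more cells of a type and more RNA per cell cannot be told apart.

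**Figure D1:**
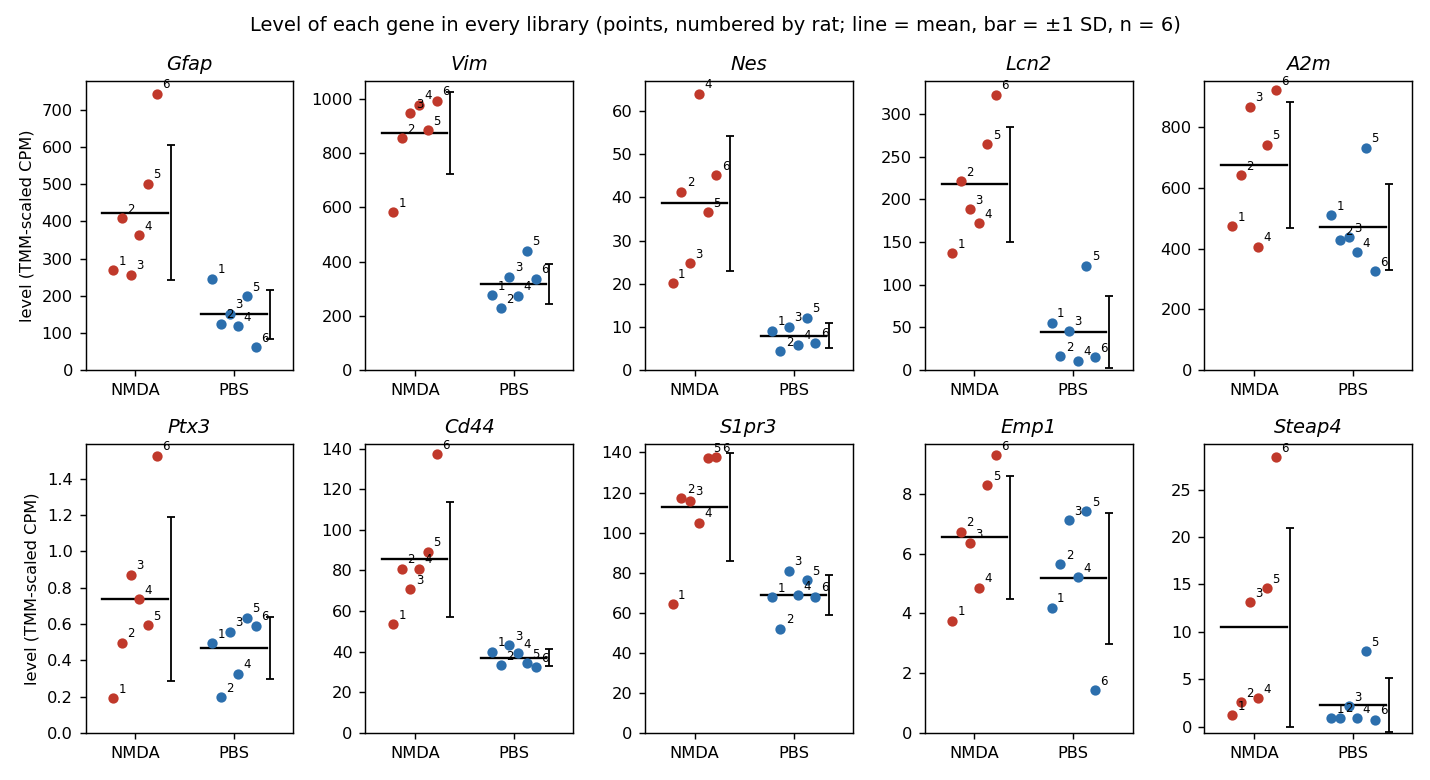
Level of the 10 genes in every library, in CPM, counts scaled to a common library total after TMM (vertical axis from 0 or just below it, a scale for each gene), with NMDA libraries in red and PBS libraries in blue, the mean as a line and ±1 SD as a bar beside the points (n = 6 each). Gfap, Vim, Nes, Lcn2 and Cd44 show no overlap between the groups, S1pr3 overlaps through NMDA 1 alone, and the other 4 genes overlap more widely.

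Total counts ran from 16415611 to 34022023 per library. Rod genes, the defining markers of the labelled tissue, summed to 30947 to 45198 CPM in NMDA libraries and 44511 to 47417 CPM in PBS libraries. Only NMDA 1 reached the PBS range. Of the 6 rod markers 5 were lower with NMDA and none higher (all genes tested: 17.5% lower, 20.4% higher). The first principal component, with 44.7% of the variance, separated the groups, and PBS 5 and NMDA 1 stood nearest to each other on it, at 11.2 and -8.19. NMDA 1 also lay far from all other libraries on the second component, at 62.2. Without PBS 5 and NMDA 1 the number of the 10 genes called higher was 8, and 16328 genes tested gave 3334 higher and 3147 lower calls. Leaving out the libraries nearest to the opposite group favours larger differences, so this count is no check of robustness. With scaling by library size only, all genes tested gave 4233 higher and 2323 lower calls (64.6% higher), against 3315 and 2852 (53.8% higher) with TMM, and 6 of the 10 genes were higher under both.

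Per gene length, vimentin RNA was the most abundant of the 10 in both groups. On the deposited FPKM scale, Vim averaged 504 ± 91.7 with NMDA and 176 ± 41.9 with PBS (SD, n = 6 each). After NMDA it was followed by A2m at 139 ± 43.7, Lcn2 at 138 ± 44.4 and Gfap at 126 ± 55.5 FPKM, levels that differed by less than their SD. With PBS these genes stood at 93.2 ± 28.5 FPKM for A2m, 27.2 ± 26.1 for Lcn2 and 43.1 ± 18.6 for Gfap. S1pr3, at 30.2 ± 7.58 FPKM with NMDA and 17.8 ± 2.59 with PBS, and Cd44, at 13.5 ± 4.61 and 5.65 ± 0.672, lay in the middle of the order. Nes, Steap4 and Emp1 had 2.57 ± 1.05, 2.53 ± 2.55 and 2.44 ± 0.798 FPKM with NMDA, again closer than their SD. With PBS they had 0.515 ± 0.190, 0.526 ± 0.665 and 1.86 ± 0.793 FPKM. Ptx3 was the lowest, at 0.391 ± 0.242 FPKM with NMDA and 0.238 ± 0.0872 with PBS.

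All 3 filament genes rose, and the fitted fold was largest for nestin RNA. Its margin over Gfap did not pass in a test of ratios given below. Gfap encodes the glial fibrillary acidic protein (ENSRNOG00000002919, chromosome 10, 87852890 to 87861589; gene positions are those of the authors' file, for which the labels state no genome build, and are not comparable with the RefSeq positions of promoters given further on). It ran from 256 CPM in NMDA 3 over a median of 386 to 743 CPM in NMDA 6, and in PBS libraries from 61.5 CPM in PBS 6 over a median of 139 to 246 CPM in PBS 1. The groups did not overlap, but the lowest NMDA library and the highest PBS library lay close together. Gfap was 2.82-fold higher (log2 1.50 ± 0.35 SE, edgeR adjusted p = 0.00558).

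Vim, the gene of vimentin, a filament protein of resting and reactive Müller cells alike (ENSRNOG00000018087, chromosome 17, 76668647 to 76677187), had 583 CPM in NMDA 1 and between 856 and 993 CPM in the other NMDA libraries, with a group median of 916. In PBS libraries it ran from 228 over a median of 307 to 440.0 CPM, the last in PBS 5. All NMDA libraries lay clear of all PBS libraries, and the fold was 2.76 (log2 1.46 ± 0.16 SE, edgeR adjusted p = 7.54e-05). Of the 10 genes Vim had the smallest spread between NMDA libraries, with an SD of 0.29 on the log2 scale against 0.33 between PBS libraries.

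Nes, the gene of nestin, a filament protein of neural progenitors that co-assembles with vimentin (ENSRNOG00000018681, chromosome 2, 173438734 to 173447777), ran from 20.2 CPM in NMDA 1 over a median of 38.9 to 63.9 CPM in NMDA 4. PBS libraries held 4.39 to 12.1 CPM, with a median of 7.78. The ranges were well apart. Nes was 4.84-fold higher (log2 2.28 ± 0.31 SE, edgeR adjusted p = 0.000264), and it was the 1 gene of the 10 whose highest NMDA library was not NMDA 6.

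Within each library the proportions of the 3 filament RNAs were compared on the FPKM scale, which does not depend on library scaling (3 ratios, two-sided exact permutation tests over libraries, adjusted over the 3). The log2 ratio of Gfap to Vim averaged -2.08 ± 0.50 with NMDA and -2.13 ± 0.74 with PBS (SD, n = 6 each), a difference of 0.05 that was far smaller than the spread (exact permutation p = 0.890, adjusted 0.890). Gfap thus made up 19.6% ± 5.34 of the summed FPKM of the 3 genes with NMDA and 19.6% ± 7.34 with PBS. The log2 ratio of Nes to Vim averaged -7.69 ± 0.45 with NMDA and -8.47 ± 0.34 with PBS, a difference of 0.78 (exact permutation p = 0.0130, adjusted 0.0390; n = 6 each). For Nes to Gfap the difference was 0.73 and did not pass after adjustment (exact permutation p = 0.0476, adjusted 0.0714; n = 6 each).

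The other filament genes listed here did not follow as a group. Of 13 tested genes of other intermediate filament and linker proteins, 2 were higher and 2 lower (all genes tested: 20.4% and 17.5%). Their median log2 fold change was 0.05. The list holds no neurofilament genes and includes Bfsp1 and Bfsp2, filament genes of the lens, neither of which passed. Lmna, the gene of the nuclear lamins A and C, rose to 71.8 ± 10.2 CPM with NMDA, against 32.5 ± 5.77 with PBS (SD, n = 6 each; log2 1.14, edgeR adjusted p = 4.49e-05). Plec, the gene of plectin, which links filaments to each other and to membranes, rose by 0.48 on the log2 scale (edgeR adjusted p = 0.00270). The 2 that fell are filament genes of neurons: Ina, the alpha-internexin gene, fell by 0.96 and Prph, the peripherin gene, by 0.92 on the log2 scale (edgeR adjusted p = 0.000883 and 0.00685). Summed markers of ganglion cells, which contain such neuronal filaments, had 122 to 358 CPM in NMDA libraries and 513 to 622 CPM in PBS libraries. Of these 6 markers, which include the neurofilament gene Nefl, 5 were lower and none higher (all genes tested: 17.5% and 20.4%). The part of ganglion cells in the fall of Ina and Prph was not tested.

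**Figure D2:**
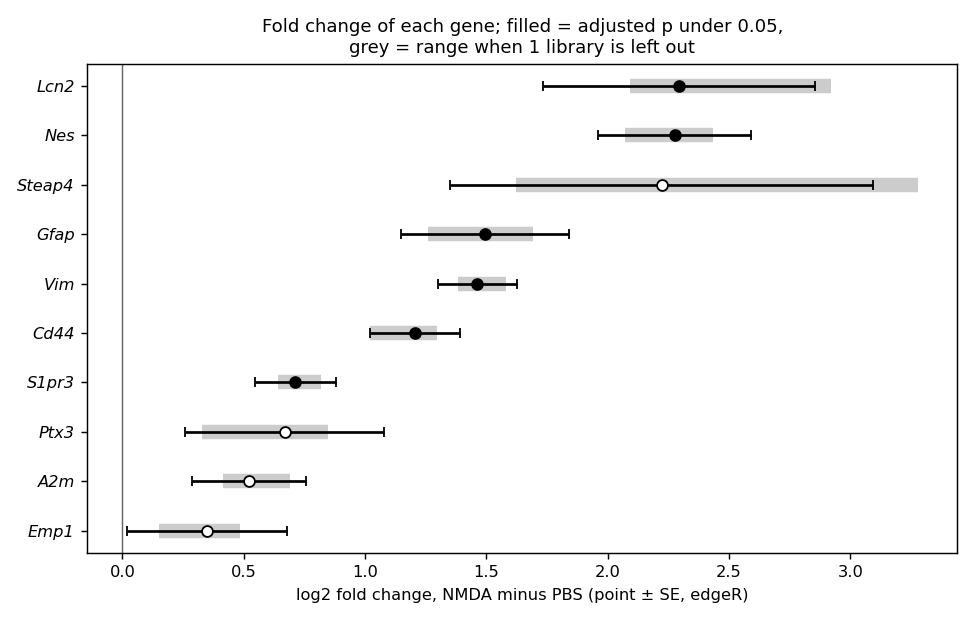
Log2 fold change of each gene, NMDA minus PBS (horizontal axis; point with its SE from edgeR), filled where the adjusted p was under 0.05, with a grey band for the range of values when 1 library was left out in turn. Lcn2, Nes and Steap4 lie above 2, and the band of Steap4, from 1.62 to 3.28, is the widest.

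Among the secreted defence proteins, only Lcn2 passed the test, and the 3 genes differed widely in how they behaved. Lcn2 encodes lipocalin-2, which withholds iron from bacteria by binding their siderophores and is a marker of reactive astrocytes in mouse (ENSRNOG00000013973, chromosome 3, 15680687 to 15684095). Its promoter window is shown because Lcn2 had the largest fold change of the 10 genes. The window runs from 250 bases before to 50 bases after the gene's start in RefSeq (GRCr8, chr3:36081731-36082030, minus strand), is printed 5′ to 3′ on the gene's strand, and has in capitals the letters that match GGANNTTCC or its reverse complement GGAANNTCC, a form of the NF-kB motif, whose first base lies 242 bases before the start:
Lcn2: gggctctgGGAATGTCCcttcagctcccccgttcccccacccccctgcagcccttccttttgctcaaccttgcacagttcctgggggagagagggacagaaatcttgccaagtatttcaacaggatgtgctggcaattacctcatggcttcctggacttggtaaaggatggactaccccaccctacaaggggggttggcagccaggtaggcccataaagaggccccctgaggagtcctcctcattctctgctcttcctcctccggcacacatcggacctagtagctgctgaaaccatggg

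The level of Lcn2 ran from 137 CPM in NMDA 1 over a median of 205 to 322 CPM in NMDA 6. PBS libraries ran from 11.03 CPM in PBS 4 over a median of 31.3 to 122 CPM in PBS 5. The groups did not overlap, though PBS 5 came near to NMDA 1 and lay far above the other PBS libraries, which reached at most 55.7 CPM. Lcn2 was 4.90-fold higher (log2 2.29 ± 0.56 SE, edgeR adjusted p = 0.00736), and without PBS 5 the log2 value was 2.92, a fold over 1.5 times larger (edgeR adjusted p = 0.00100). The highest PBS level was 11.1 times the lowest, and the highest NMDA level 2.35 times the lowest. The SD of log2 CPM between PBS libraries was 1.35, larger than in 99.3% of all genes tested, whose median SD was 0.14.

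Lcn2 is also a gene of the specific granules of neutrophils, so neutrophil markers were set beside it. Over the 6 NMDA libraries and the 6 PBS libraries, Lcn2 had 38293 and 6636 counts in all. Camp, a neutrophil granule peptide gene, had 11 and 1, Elane, of neutrophil elastase, 5 and 0, Mpo, of myeloperoxidase, 0 and 6, and Ngp, another granule protein gene, 51 and 71. The other 4 markers of the list had more counts with NMDA. Csf3r, of the receptor for granulocyte colony-stimulating factor, had 1377 and 181 counts, Mmp9, of a matrix protease, 745 and 170, and S100a9 and S100a8, of the calprotectin subunits, 581 and 29 and 254 and 16. Csf3r, Mmp9 and S100a9 were tested and rose (log2 2.68, 1.89 and 4.08, edgeR adjusted p = 0.0132, 0.0103 and 0.0207). The sum of the 8 neutrophil markers was 5.21 to 51.7 CPM in NMDA libraries, highest in NMDA 6, and 2.29 to 6.07 CPM in PBS libraries, highest in PBS 5. Without NMDA 6 the log2 fold change of Lcn2 was 2.15 (edgeR adjusted p = 0.0179). The part of neutrophils in the level of Lcn2 was not tested.

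A2m, the gene of alpha-2-macroglobulin, a broad inhibitor of proteases and a major acute-phase protein of rat plasma (ENSRNOG00000028896, chromosome 4, 154897877 to 154947786), was abundant in both groups. NMDA libraries held 407 to 923 CPM with a median of 693, and PBS libraries 326 to 733 CPM with a median of 433. The groups overlapped: NMDA 3, NMDA 5 and NMDA 6 lay above all PBS libraries, while NMDA 1 and NMDA 4 lay below PBS 5 and PBS 1. The log2 fold change was 0.52 ± 0.23 (SE) and did not pass (edgeR adjusted p = 0.0998). It passed without PBS 5, the highest PBS library (0.69, edgeR adjusted p = 0.0250), and without NMDA 4, the lowest NMDA library (0.63, adjusted p = 0.0437). It fell to 0.41 without NMDA 6, the highest NMDA library (edgeR adjusted p = 0.211). Without PBS 6, the lowest PBS library, it was 0.44 (edgeR adjusted p = 0.184). The related genes Pzp, Mug1 and Mug2, whose reads could be split with those of A2m, had 9, 1 and 0 counts over all NMDA libraries and 10, 0 and 0 over all PBS libraries.

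Ptx3, the gene of pentraxin-3, a pattern recognition molecule of the C-reactive protein family (ENSRNOG00000012280, chromosome 2, 150487513 to 150493323), had the lowest level of the 10 genes, with 131 counts over the 6 NMDA libraries and 70 over the 6 PBS libraries. Its level ran from 0.192 to 1.53 CPM with NMDA, median 0.664, and from 0.196 to 0.635 CPM with PBS, median 0.526. NMDA 1 held the lowest value of all 12 libraries and NMDA 6 the highest. The log2 fold change of 0.67 ± 0.41 (SE) did not pass (edgeR adjusted p = 0.226). The SD of its log2 CPM between NMDA libraries was 0.86, larger than in 95.9% of all genes tested.

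Other plasma acute-phase genes had low levels, apart from Orm1 in some NMDA libraries. Of 11 found, 6 had enough counts to be tested, of which 2 were higher and 1 lower (all genes tested: 20.4% and 17.5%). Their median log2 fold change was 0.68. Fgg, of the fibrinogen gamma chain, was higher at 1.50 ± 1.11 CPM with NMDA and 0.524 ± 0.286 with PBS (SD, n = 6 each; edgeR adjusted p = 0.0444). Apcs, of serum amyloid P, was higher by 0.93 on the log2 scale (edgeR adjusted p = 0.0353). Hp, the haptoglobin gene, fell by 0.31 (edgeR adjusted p = 0.0403), and Hpx, the hemopexin gene, had a log2 fold change of 0.59 and did not pass (edgeR adjusted p = 0.166). Orm1, of the plasma protein orosomucoid, named after its values were seen, did not reach the count minimum in enough libraries to be tested. It had 1282 counts over the 6 NMDA libraries and 12 over the 6 PBS libraries, with 0 to 20.9 CPM with NMDA (median 1.96, highest in NMDA 5) and 0 to 0.357 CPM with PBS (median 0.0185).

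Among the membrane protein genes, the receptor genes Cd44 and S1pr3 passed the test, and Emp1 and Steap4 did not. The fitted fold of Steap4 was larger than that of either receptor gene, but imprecise. Cd44 encodes the main cell surface receptor for hyaluronan, which in retina sits on Müller cell processes (ENSRNOG00000006094, chromosome 3, 89157058 to 89244620). It ran from 53.5 CPM in NMDA 1 over a median of 80.9 to 137 CPM in NMDA 6, and in PBS libraries from 32.3 over a median of 36.8 to 43.1 CPM. All NMDA libraries lay above the PBS range, NMDA 1 the nearest to it. The fold was 2.31 (log2 1.21 ± 0.18 SE, edgeR adjusted p = 0.000446). PBS libraries were alike in Cd44, with a highest level only 1.34 times the lowest, and PBS 5, high for most of the other genes, had 34.3 CPM.

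Genes of hyaluronan turnover and binding, together with genes of CD44 partners, were higher in 6 of 12 tested and lower in none (all genes tested: 20.4% and 17.5%). Their median log2 fold change was 0.56. Msn, of moesin, which ties CD44 to the actin cortex, rose to 132 ± 24.9 CPM with NMDA, against 43.5 ± 10.4 with PBS (SD, n = 6 each; log2 1.598, edgeR adjusted p = 4.32e-05). Ezr, of the related protein ezrin, rose by 0.81 on the log2 scale (edgeR adjusted p = 0.000704). Spp1, of the CD44 ligand osteopontin, rose by 2.28 and Hyal2, of a hyaluronidase, by 0.43 (edgeR adjusted p = 0.00142 and 0.000655).

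S1pr3 encodes a receptor for sphingosine-1-phosphate, a lipid signal of inflammation (ENSRNOG00000014524, chromosome 17, 13781050 to 13794505). NMDA libraries ran from 64.1 over a median of 116 to 138 CPM, and PBS libraries from 52.0 over a median of 68.3 to 80.9 CPM. NMDA 1 lay inside the PBS range and the other 5 NMDA libraries above it. S1pr3 was 1.64-fold higher (log2 0.71 ± 0.17 SE, edgeR adjusted p = 0.00533).

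Other genes of sphingosine-1-phosphate changed little, with a median log2 fold change of 0.15. Of 8 tested, 2 were higher and 1 lower, near the shares of all genes tested (20.4% and 17.5%). S1pr2, of another receptor, rose by 0.30 and Sgpl1, of the lyase that degrades the lipid, by 0.14 on the log2 scale, and S1pr5, a receptor gene of oligodendrocytes, fell by 0.50 (edgeR adjusted p = 0.0248, 0.0277 and 0.00497). Sgpp1, of a phosphatase for the lipid, had a log2 fold change of 0.17 and did not pass (edgeR adjusted p = 0.0507). Sphk1, of the kinase that makes it, counted here among the A2 genes below, rose by 0.72 (edgeR adjusted p = 0.00294).

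Emp1 and Steap4 are shown with their promoter windows because they alone of 9 windows held the STAT motif searched. The letters searched on both strands were TTCNNNGAA for STAT factors, TGANTCA for AP-1, and the NF-kB form given above. All 3 were looked for in the RefSeq windows of the 10 genes, of which 9 matched by symbol (all but A2m), and in all 33469 windows. TTCNNNGAA was found in 2 of the 9 windows and in 8.87% of all, TGANTCA in 1 of 9 (Emp1) and 7.33% of all, and the NF-kB form in 2 of 9 (Lcn2 and Steap4) and 4.09% of all. In the window of Steap4 (GRCr8, chr4:27054720-27055019, minus strand) the capitals mark an NF-kB match from 178 bases and a STAT match from 66 bases before the start, and in that of Emp1 (GRCr8, chr4:169943980-169944279, plus strand) AP-1 matches from 212 and 88 and STAT matches from 187 and 85 bases before it, with the AP-1 match at 88 overlapping the STAT match at 85:
Steap4: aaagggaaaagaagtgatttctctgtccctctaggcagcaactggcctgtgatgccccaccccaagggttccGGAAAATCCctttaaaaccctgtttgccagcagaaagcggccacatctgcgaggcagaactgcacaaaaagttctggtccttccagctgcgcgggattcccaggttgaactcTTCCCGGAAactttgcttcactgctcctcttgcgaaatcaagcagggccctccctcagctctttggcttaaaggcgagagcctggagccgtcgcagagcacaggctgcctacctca
Emp1: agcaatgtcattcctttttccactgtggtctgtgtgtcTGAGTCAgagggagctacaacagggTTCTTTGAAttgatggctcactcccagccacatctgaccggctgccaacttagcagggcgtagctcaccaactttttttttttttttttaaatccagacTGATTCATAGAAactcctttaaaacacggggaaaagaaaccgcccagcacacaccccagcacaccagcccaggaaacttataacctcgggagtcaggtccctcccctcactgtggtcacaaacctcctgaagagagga

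Steap4, which encodes a metalloreductase that reduces iron and copper for uptake and is induced by inflammatory cytokines (ENSRNOG00000008602, chromosome 4, 26054671 to 26099859), had the largest spread of the 10 genes between NMDA libraries, with an SD of log2 CPM of 1.74, and the next to largest after Lcn2 between PBS libraries, at 1.28. NMDA 1, NMDA 2 and NMDA 4 held 1.23, 2.55 and 3.02 CPM, and NMDA 3, NMDA 5 and NMDA 6 held 13.1, 14.6 and 28.4 CPM. PBS 5 had 7.97 CPM, and the other PBS libraries had 0.701 to 2.17 CPM. The high NMDA libraries were thus above all PBS libraries, and the low ones were below PBS 5. The fitted fold change was large but imprecise (4.66-fold, log2 2.22 ± 0.87 SE) and did not pass (edgeR adjusted p = 0.0647). It passed without PBS 5 (3.28, adjusted p = 0.0109), without NMDA 1 (2.45, adjusted p = 0.0348) and by the DESeq2 Wald test (2.21, adjusted p = 0.0237), and without NMDA 6 it was 1.62 (adjusted p = 0.166).

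The rats high in Steap4 were also high in fibroblast and scar matrix markers. The sum of 6 such markers was 263, 220 and 307 CPM in NMDA 3, NMDA 5 and NMDA 6, and 81.3, 96.3 and 129.98 CPM in NMDA 1, NMDA 2 and NMDA 4. PBS 5 had 138 CPM, and the other PBS libraries 30.4 to 66.6 CPM. Of the 6 markers only Fn1, the fibronectin gene, passed the test (higher, as did 20.4% of all genes tested). Whether these cells have a part in the Steap4 values was not tested. The split was not particular to these markers. Genes shared by reactive astrocytes in mouse, given below, summed to 627, 677 and 667 CPM in NMDA 3, NMDA 5 and NMDA 6. In NMDA 1, NMDA 2 and NMDA 4 they summed to 207, 376 and 323 CPM. A2m and the sum of the neutrophil markers split the NMDA libraries in the same way.

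Emp1 encodes epithelial membrane protein 1, a tetraspan membrane protein listed among A2 astrocyte genes in mouse (ENSRNOG00000008676, chromosome 4, 168212861 to 168232904). It had 3.76 to 9.29 CPM in NMDA libraries, median 6.55, and 1.44 to 7.42 CPM in PBS libraries, median 5.44. The groups overlapped over most of their range, with PBS 6 below all other libraries. The log2 fold change of 0.35 ± 0.33 (SE) did not pass (edgeR adjusted p = 0.445).

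Relatives and binding partners of the 10 proteins were higher in 1 and lower in 5 of 12 tested genes (all genes: 20.4% and 17.5%). Their median log2 fold change was -0.15. Emp3, of a protein related to that of Emp1, rose to 8.88 ± 2.22 CPM with NMDA, against 2.82 ± 1.56 with PBS (SD, n = 6 each; log2 1.66, edgeR adjusted p = 0.00116). Steap3, a relative of Steap4 that acts in transferrin iron uptake, fell by 0.41 on the log2 scale (edgeR adjusted p = 0.0352). The neuronal pentraxin genes Nptx1 and Nptxr, relatives of Ptx3 that act at synapses, fell by 0.85 and 0.45 (edgeR adjusted p = 0.00227 and 0.000729).

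**Figure D3:**
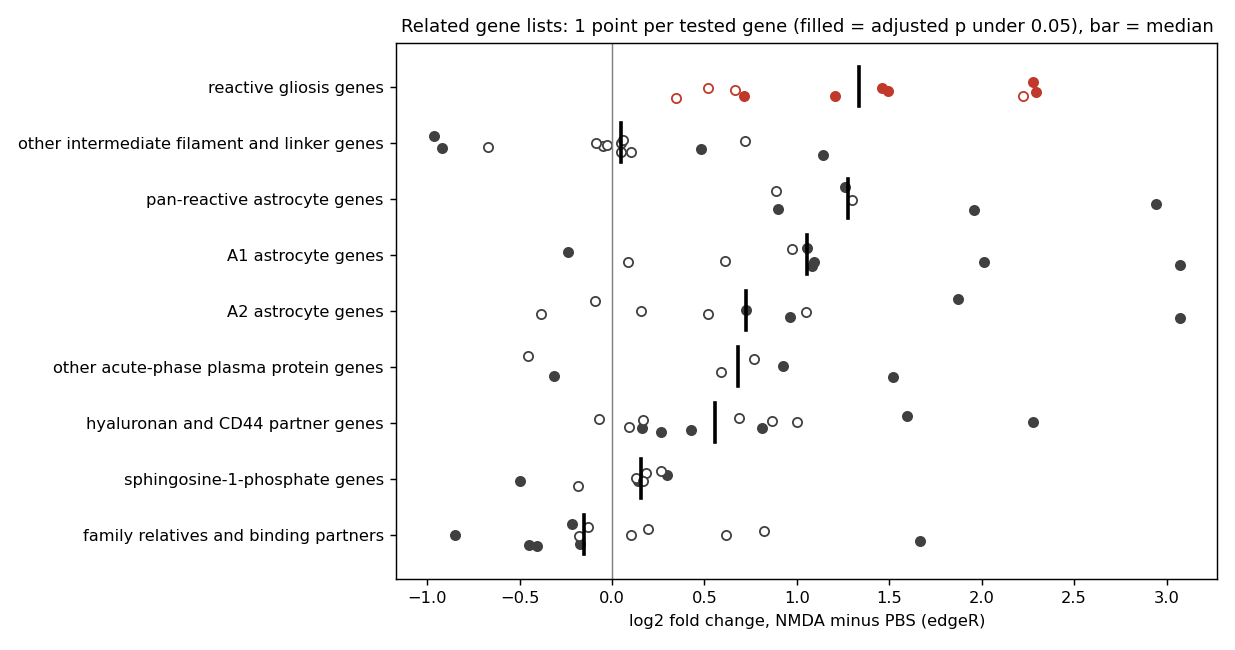
Log2 fold changes, NMDA minus PBS, of the tested genes in each related list (1 point per gene, filled where the edgeR adjusted p was under 0.05; black bar, median; vertical position within a row is arbitrary), with the 10 reactive gliosis genes in red at the top. The pan-reactive, A1 and A2 astrocyte genes, without those among the 10, have medians of 1.28, 1.06 and 0.72. The filament and sphingosine-1-phosphate lists have medians near 0.

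Genes that mark reactive astrocytes in mouse, beside those among the 10, rose in part. Of 6 tested genes shared by all reactive astrocytes, 4 were higher and none lower (all genes tested: 20.4% and 17.5%). Their median log2 fold change was 1.28. Timp1, of a metalloproteinase inhibitor, rose to 70.9 ± 19.0 CPM with NMDA, against 9.25 ± 6.74 with PBS (SD, n = 6 each; log2 2.94, edgeR adjusted p = 0.000360). Osmr, of the oncostatin M receptor, rose by 1.96, Aspg, of an asparaginase, by 1.26, and Hspb1, of a small heat shock protein, by 0.90 (edgeR adjusted p = 0.000222, 0.00573 and 0.0328).

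Among genes named A1 for their response to bacterial endotoxin, 5 of 9 tested were higher and 1 lower (all genes: 20.4% and 17.5%). Their median log2 fold change was 1.06. Gbp2, of an interferon-induced GTPase, rose by 3.07, Psmb8, of the immunoproteasome, by 2.01 and Ggta1, of a sugar transferase, by 1.09 on the log2 scale (edgeR adjusted p = 0.000241, 0.000572 and 0.00685). Amigo2, of an adhesion protein, fell by 0.24 (edgeR adjusted p = 0.0121). Among genes named A2 for their response to ischaemia, 4 of 9 tested were higher and none lower (all genes: 20.4% and 17.5%). Their median log2 fold change was 0.72. S100a10, of a calcium-binding protein, and Cd14, of an endotoxin coreceptor also made by macrophages, rose by 1.87 and 3.07, and Tm4sf1, of a tetraspan protein, by 0.96 (edgeR adjusted p = 5.04e-06, 0.000156 and 0.000808).

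The same few libraries were often at the ends of a group's range. NMDA 6 was the highest NMDA library for 9 of the 10 genes, and NMDA 1 the lowest for 8. PBS 5 was the highest PBS library for 7 of them, all but Gfap, Cd44 and S1pr3. The median deviation from the PBS mean over the 10 genes, on the log2 scale, was 1.79 in NMDA 6 and 0.30 in NMDA 1, against 0.61 in PBS 5. The order was not shared by all genes: NMDA 4 was the highest NMDA library for Nes and the lowest for A2m, and NMDA 3 was the lowest for Gfap and the next to highest for A2m. In PBS libraries the SD of log2 CPM was above the median of all genes tested (0.14) for each of the 10 genes, from 0.17 for Cd44 to 1.35 for Lcn2.

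**Figure D4:**
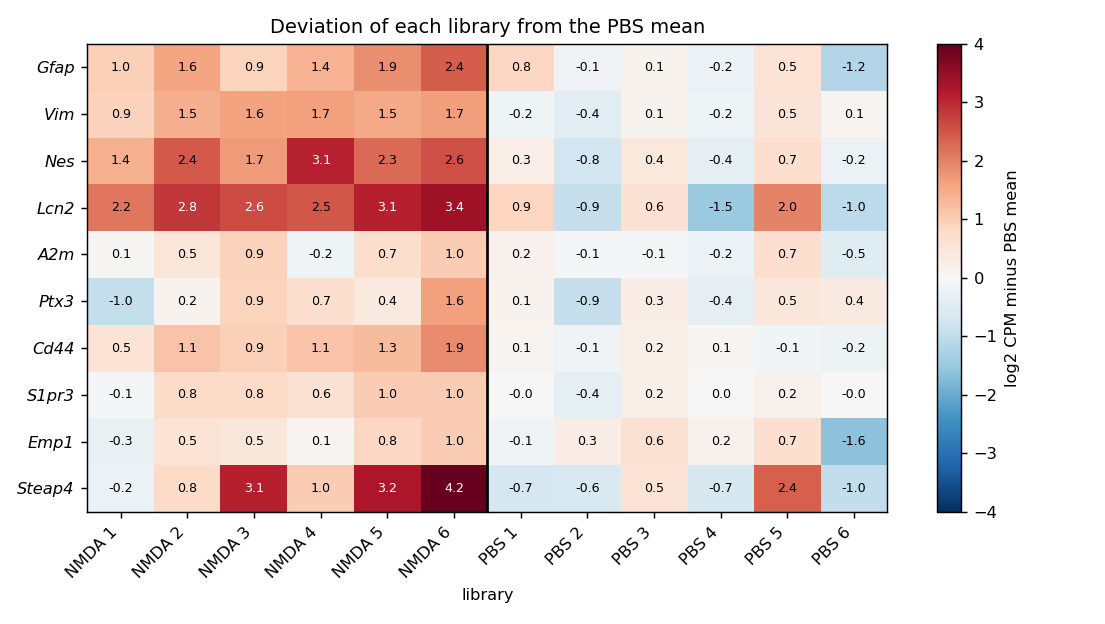
Deviation of each library (columns, NMDA left of the black line and PBS right of it) from the PBS mean of a gene (rows), as log2 CPM with the value in each cell and red for higher. NMDA 6 is the darkest column, NMDA 1 has Ptx3, S1pr3, Emp1 and Steap4 below the PBS mean, and PBS 5 has Lcn2 and Steap4 at 2.0 and 2.4 above it.

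Markers of the cell types that could carry these RNAs moved as well. Beside the counts that follow, the shares of all genes tested were 20.4% higher and 17.5% lower. Of 12 Müller cell markers 7 were lower and 3, Crym, Sox9 and Cyp26a1, higher. The 12 summed to 3487 to 4550 CPM in NMDA libraries and 5075 to 7017 CPM in PBS libraries. Glul and Dkk3 made the largest parts of this sum. Glul had 1220 ± 190 CPM with NMDA and 2528 ± 524 with PBS, and Dkk3 997 ± 148 and 1626 ± 129 (SD, n = 6 each). Retinal astrocyte markers had 1 of 6 lower and none higher, and summed to 609 to 957 CPM in NMDA libraries and 1127 to 1323 CPM in PBS libraries, without overlap. Most of that sum was Aldoc, a glycolysis gene of astrocytes and the one that fell, at 671 ± 152 CPM with NMDA and 1123 ± 76.0 with PBS (SD, n = 6 each; log2 -0.74, edgeR adjusted p = 0.000614). Pax2, a transcription factor gene that defines retinal astrocytes, was low in both groups, at 0.576 ± 0.152 CPM with NMDA and 0.565 ± 0.259 with PBS, and did not pass (edgeR adjusted p = 0.993). All 9 microglia and macrophage markers were higher, with sums of 103 to 233 CPM in NMDA libraries, highest in NMDA 6, and 47.6 to 76.1 CPM in PBS libraries, highest in PBS 5. Of 6 endothelial markers 4 were higher and none lower, with sums of 815 to 1035 CPM with NMDA and 740 to 848 CPM with PBS. The part of these cells in the levels of the 10 genes was not tested.

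Genes with the profile most like that of Gfap over the 12 libraries were found by the root mean square difference between log2 CPM profiles, each centred on its own mean, among 12451 named genes whose log2 CPM averaged 1 or more. The nearest were Nek10, Slc14a1, Osmr, Cebpd and Il17rb, with differences of 0.32, 0.32, 0.32, 0.34 and 0.34 against a median of 0.97 over all candidates. Slc14a1, a urea transporter gene, had 112 ± 27.8 CPM with NMDA and 39.2 ± 8.498 with PBS, and Cebpd, a transcription factor gene, 43.5 ± 15.5 and 12.3 ± 6.95 (SD, n = 6 each). Cd44 was the nearest of the other 9 genes to Gfap, at 0.47, but only at rank 64. The filament genes Vim and Nes were at ranks 238 and 346.

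For Lcn2 the nearest were Itgax, Cd74, RT1-Da, Pdpn and Lgals3, with differences of 0.45, 0.47, 0.51, 0.52 and 0.53 against a median of 1.66. Itgax, Cd74 and RT1-Da are genes of antigen-presenting cells, and Pdpn and Lgals3 encode podoplanin and galectin-3. RT1-Da belongs to a family of near-identical genes between which reads may be split. Pdpn had 253 ± 52.3 CPM with NMDA and 38.3 ± 16.7 with PBS (SD, n = 6 each). These lists describe likeness in level over the same 12 libraries, most of which comes from the difference between the groups.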

How the data were processed

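The authors deposited whole-number counts per gene and, beside them, FPKM values, per the file headers; Bowtie2, RSEM 1.3.1 and DESeq2 1.4.5 appear in the submitters' processing notes, which give no step for any of them. No label or header states the build, whether counting used strand, or how reads matching several genes were handled, so counts of overlapping or near-identical genes are uncertain. The 10 genes and all gene lists were chosen with earlier results of these data known. Genes passing filterByExpr (count minimum 10, total minimum 15) were scaled by TMM and compared by edgeR 4.0.16 in R 4.3.3 (glmQLFit with robust estimation, quasi-likelihood F-test), with the group as the only term and Benjamini-Hochberg adjustment over all genes tested; the fit was tested on simulated counts. CPM carries the TMM factor, and log2 CPM a prior count of 2. Of 193 list symbols 187 were found, 1 of them by a RefSeq synonym. From each list of related genes the text names up to 4 tested genes with the smallest adjusted p; lists of cell type markers are given by their sum and counts, with single markers only beside a result they bear on. Alternatives used DESeq2 1.42.0, limma 3.58.1 (voom, or log2 of FPKM with a pseudocount of 1 or 0.1), other scalings and filters, and left out libraries. Each library is 1 rat per the labels, with no litter or cage named, and within a group all libraries differed by more than sampling noise.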

Additional observations from a re-analysis of the deposited data

Results flagged for a closer look

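Each of the 10 genes was checked in both groups, 20 groups in all, for a library whose gap to its neighbour was over Dixon's 95% critical share of the group's range, a rule that chance meets in about 1 in 20 groups. It was met by 2. Vim in NMDA 1 had 582.9 CPM, below the 855.6 to 992.6 CPM of the other NMDA libraries. Steap4 in PBS 5 had 7.974 CPM, above the 0.7014 to 2.166 CPM of the other PBS libraries.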

How the results depend on the processing

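The number of the 10 genes called higher was 6 to 8 over the 23 alternatives, and none was called lower under any of them. Gfap, Vim, Nes, Lcn2, Cd44 and S1pr3 passed in all 23. Leaving out 1 library at a time gave log2 fold changes of 1.26 to 1.69 for Gfap, 1.38 to 1.58 for Vim, 2.07 to 2.44 for Nes, 2.09 to 2.92 for Lcn2, 1.02 to 1.30 for Cd44 and 0.64 to 0.82 for S1pr3. Emp1 and Ptx3 passed in none of 22 each, A2m in 3 of 23 and Steap4 in 5 of 22; the stricter filter (10 CPM in 6 libraries) removed the last-named gene, Emp1 and Ptx3. Without PBS 5 and NMDA 1 the log2 values of Steap4 and A2m were 3.51 and 0.76 (edgeR adjusted p = 0.00358 and 0.0141). Both libraries stood nearest to the opposite group, so leaving them out favours larger differences. Lcn2 reached 3.08 with limma voom. With a pseudocount of 1 on FPKM, Nes was at 1.20 and Steap4 at 0.98 (limma), since both lie near that pseudocount. Nothing in the labels pairs equal numbers, and the correlation of deviations between same-numbered libraries ran from -0.19 to 0.15. With the replicate number as a block, 7 of the 10 genes were higher, Steap4 now passing (2.01, edgeR adjusted p = 0.0471), and all genes tested gave 2948 higher and 2645 lower calls in place of 3315 and 2852. Ptx3 rests on 131 counts with NMDA and 70 with PBS, and without NMDA 1 its adjusted p by edgeR was 0.0686.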

Other observations

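Serpina3n, a protease inhibitor gene of reactive astrocytes with too few counts to be tested, chosen after its values were seen, had 29 counts over the 6 NMDA libraries and 0 over the 6 PBS libraries.

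Markers of other cells and tissues the sample could hold were also summed. Beside their counts, the shares of all genes tested were 20.4% higher and 17.5% lower. Lymphocyte markers had 2.69 to 7.14 CPM with NMDA and 0.628 to 2.54 with PBS, and 2 of 3 tested were higher. Pericyte and smooth muscle markers had 83.8 to 340.3 CPM with NMDA and 108 to 245 with PBS, with 1 higher and 1 lower of 7. Lens markers, with none of 6 called, had 46.5 to 2196 CPM with NMDA, lowest in NMDA 1, and 433 to 1981 with PBS. Pigment epithelium markers had 19.5 to 261 CPM with NMDA and 88.5 to 209 with PBS, with 3 of 6 lower. Oligodendrocyte and optic nerve markers had 21.0 to 33.5 CPM with NMDA and 24.5 to 29.6 with PBS, with 1 of 2 tested lower.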
